A study of Mus musculus with 12 samples.

Results

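The enzymes of heme synthesis were followed here as 9 genes, taken by symbol from both count tables in pathway order: Alas1, Alas2, Alad, Uros, Urod, Cpox, Ppox, Fech and Slc25a38. They are 9 of the 23420 genes that each table lists, and the list does not hold every enzyme of the pathway. All 9 had enough reads to be tested in both lines, with between 454 and 5181 counts a library. By GENCODE M21 (GRCm38, the build of mm10) all are protein coding: Alas1 lies at chr9:106233455-106248654, Alas2 at chrX:150547375-150570638, Alad at chr4:62509169-62519918, Uros at chr7:133686243-133710072, Urod at chr4:116989965-116994413, Cpox at chr16:58670292-58717636, Ppox at chr1:171275990-171281186, Fech at chr18:64452914-64490251 and Slc25a38 at chr9:120110374-120124504. Counts cover the exons of each.

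RNA came from whole mouse embryos at embryonic day 12.5, 12 libraries in all. Of these, 3 embryos were homozygous for a null allele of Carm1 (Carm1 KO/KO), which lacks exons 2 and 3 in every cell, and 3 were wild type from the same crosses of heterozygotes on C57BL/6. The other line held 3 embryos homozygous for the Splotch allele of Pax3 (Pax3 Sp2H/Sp2H) and 3 of wild type from that colony, whose strain is labelled mixed. Carm1 encodes an arginine methyltransferase that acts with transcription factors, and Pax3 a transcription factor of neural crest and muscle precursors. The Pax3 line was included to test whether lost Pax3 function could account for the heart malformations of the Carm1 line. Both lines differ in strain, colony and laboratory as well as in the mutated gene, and these cannot be told apart. Since whole embryos were used, fewer cells of a type and less RNA per cell cannot be told apart either.

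Heme is made by a chain of enzymes that starts and ends in the mitochondrion and passes through the cytosol between. Slc25a38 carries glycine into the mitochondrion, where 5-aminolevulinate synthase joins it to succinyl-CoA in the step that limits the rate. Alas1 encodes this enzyme in all cells, and Alas2, on the X chromosome, encodes it in red cell precursors. Alad, Uros and Urod then build the ring in the cytosol, Cpox and Ppox oxidize it in the mitochondrion, and Fech inserts the iron. At this age the fetal liver is taking over red cell production, while large nucleated red cells from the yolk sac still circulate, and hemoglobin synthesis in both draws on this pathway.

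Upstream sequence is shown for 4 members. Alas2, Cpox and Uros hold the word searched here for GATA factors, the family of the erythroid factor GATA1. Ppox, the member that passed the test in both lines, holds none of the words searched. RefSeq (GRCm38.p6) gave 11 windows of 250 bases before a transcription start for 8 of the 9 members, and Fech had none. Words were searched on both strands. For GATA factors the word was GATA with an A or a T before it and an A or a G after it. For the CACCC box of KLF factors it was CCNCNCCC, and for NRF1 it was GCGCA, then any base, then GCGC. Of 32851 RefSeq windows of that length, 26.5% hold a GATA word, 45.9% the CACCC word and 3.74% the NRF1 word. Of the 11 member windows, those of Alas2 and Cpox and the inner one of Uros hold a GATA word, a share near that of all windows. Each sequence below runs 5′ to 3′ on the strand of its gene, ends where an annotated exon begins, and has the matches in capitals.
Alas2, chrX:150547167-150547374, plus strand, which ends 43 bases before the start: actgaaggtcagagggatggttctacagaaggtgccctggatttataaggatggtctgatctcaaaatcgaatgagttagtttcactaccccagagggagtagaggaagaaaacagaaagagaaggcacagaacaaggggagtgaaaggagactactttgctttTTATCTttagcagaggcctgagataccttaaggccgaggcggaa
Cpox, chr16:58669958-58670207, plus strand, which ends at the base before the start: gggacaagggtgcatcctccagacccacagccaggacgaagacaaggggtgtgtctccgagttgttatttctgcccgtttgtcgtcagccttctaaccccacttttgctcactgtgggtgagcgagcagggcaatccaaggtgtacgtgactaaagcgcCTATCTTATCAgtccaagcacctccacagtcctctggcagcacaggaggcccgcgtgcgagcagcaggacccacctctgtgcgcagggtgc
Uros, chr7:133702617-133702750, minus strand, upstream of an internal start of the gene: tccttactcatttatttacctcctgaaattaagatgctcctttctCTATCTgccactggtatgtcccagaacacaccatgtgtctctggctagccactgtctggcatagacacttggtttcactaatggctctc
Ppox, chr1:171281187-171281436, minus strand, which ends at the base before the start: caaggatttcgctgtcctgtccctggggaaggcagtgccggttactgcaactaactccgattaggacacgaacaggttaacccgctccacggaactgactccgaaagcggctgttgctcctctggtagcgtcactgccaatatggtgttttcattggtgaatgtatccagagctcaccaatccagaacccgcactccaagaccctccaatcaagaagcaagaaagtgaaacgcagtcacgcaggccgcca
Alas2 holds 1 GATA word, 86 bases before the start, and 4 CACCC matches, 3 of them overlapping, in the part that is also exon and is not shown. Cpox holds 2 GATA words that share a base, at 91 and 86 bases before the start. Uros holds 2 before its internal start, of which the one at 205 bases is shown, and a CACCC and an NRF1 match before its outer start. Alas1 holds 2 NRF1 words, CACCC matches and no GATA word, Alad and Slc25a38 hold CACCC matches alone, and Urod and Ppox hold no match. These matches describe letters in the windows and are not evidence of binding.

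Libraries held 17183344 to 23518692 counts. The Carm1 gene stood at 69.3 to 76.2 CPM, counts scaled to library size, in Carm1 KO/KO embryos and at 137 to 151 CPM in their wild type, and Pax3 at 18.1 to 22.4 CPM in Pax3 Sp2H/Sp2H embryos and 25.0 to 30.9 CPM in theirs. Both alleles leave exons that are still counted, so these levels do not check the genotype fully. Y-linked genes were read in wild-type replicate 3 of the Carm1 line and in wild-type replicates 2 and 3 and mutant replicate 3 of the Pax3 line, so sex is not balanced between groups. Red cell content was gauged by 11 membrane and receptor genes of erythroid cells and liver content by 12 hepatocyte genes. The summed erythroid level was 924 ± 61.5 CPM (SD, n = 3) in Carm1 mutants and 1289 ± 78.2 CPM in their wild type, from 866 to 989 against 1209 to 1365 CPM, and no gene of the list was at 0. In the Pax3 line the summed erythroid level was 824 ± 91.8 CPM in mutants and 954 ± 188 CPM in wild type, with overlapping ranges. Adult globin genes held at most 1 count in any library and could not serve as markers. How reads with several alignments were treated is not given, so these counts do not show that adult globins were not expressed.

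Per kb of transcript, which allows different genes to be compared, the 9 members spanned about an order of magnitude. In wild-type embryos of the Carm1 line the highest level was that of Alas2, at 81.6 ± 8.47 CPM per kb (SD, n = 3), followed by Alad at 64.9 ± 2.90. Cpox at 57.3 ± 2.26, Fech at 54.7 ± 4.01 and Urod at 53.7 ± 1.12 CPM per kb followed, and neighbours among these 3 had overlapping ranges. The place of Fech rests on the transcript length used, since it has 5 coding transcripts of 1753 to 6571 bases. With the longest its level was 21.9 CPM per kb, just above Uros, and with the shortest 82.1, near Alas2. Ppox stood at 41.9 ± 1.99, Uros at 19.6 ± 1.89, Slc25a38 at 16.5 ± 0.852 and Alas1 at 11.3 ± 0.0947 CPM per kb, each apart from the next. Alas1 was the lowest member in all 4 groups by median or longest transcript, whereas by the shortest transcript of each gene it lay above Slc25a38 in Carm1 KO/KO (16.5 against 15.2) and in Pax3 wild-type embryos (18.1 against 17.6). In Carm1 KO/KO embryos Cpox moved, at the median length, from the third place to the sixth, at 35.3 ± 0.524 CPM per kb, and its range overlapped that of Ppox at 36.2 ± 0.602.

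The Pax3 line had another order at the top. Alad led at 164 ± 8.97 CPM per kb in wild type and 176 ± 8.80 in Pax3 Sp2H/Sp2H embryos, apart from Alas2 at 59.1 ± 10.6 and 52.2 ± 6.11. In CPM, Alad was 2.52-fold as high in the wild type of the Pax3 line as in that of the Carm1 line, with every library of the first (188 to 209) above every library of the second (76.7 to 83.6). Alad encodes the enzyme that forms porphobilinogen, and no other member differed as much between wild types. Cpox was at 0.630-fold and Ppox at 0.652-fold of the Carm1 line level, also without overlap, and Uros and Slc25a38 overlapped. Because line, strain and colony change together, these between-line levels were not tested.

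**Figure D1:**
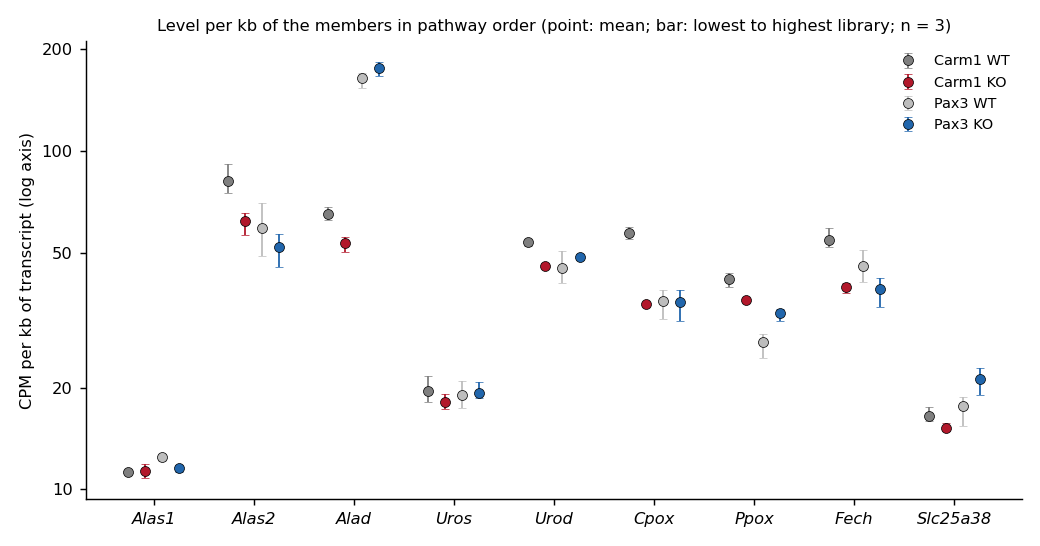
Level of each member in CPM per kb of its median coding transcript (log axis), with 1 point per group at the mean and bars from the lowest to the highest of 3 libraries. At the median transcript length Alas1 is lowest in every group, and Alad is the only member for which both Pax3 line groups lie far above both Carm1 line groups.

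In the Carm1 line, 6 of the 9 members fell in Carm1 KO/KO embryos and none rose at an FDR adjusted P under 0.05. Over all 15811 genes tested in this line, 7.83% were called lower and 5.49% higher. Over the 9 members the log2 fold change had a median of -0.23, against 0.0014 over all genes tested. Mutant and wild-type libraries did not overlap for 7 members, as for 30.0% of all genes. The largest drop was that of Cpox, followed by Fech and by Alas2, the erythroid form of the first enzyme. Alas1, Uros and Slc25a38 did not pass. The drop of the members went with the lower erythroid and hepatocyte marker levels given above and below, and the part of cell content in it was not tested in this comparison.

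At the entry of the pathway, Alas2 stood at 111, 128 and 126 CPM in the 3 Carm1 KO/KO embryos and at 148, 154 and 179 CPM in wild type. Every mutant library was below every wild-type library, and the log2 fold change was -0.40 (SE 0.0739, adjusted P = 0.00347). The highest wild-type value came from replicate 3, the library with Y-linked reads, and without it the log2 fold change was -0.31 (adjusted P = 1.62e-05). The call was lost when all 12 libraries shared 1 fit (adjusted P = 0.144) or when length and GC content were corrected (adjusted P = 0.0689), with a log2 fold change of -0.40 in both. Exons of Alas2 share 311 bases with Apex2 on the opposite strand, and Apex2 was at 17.3 ± 1.32 CPM in mutants and 16.8 ± 0.712 CPM in wild type.

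Alas1, the form used by all cells, was read at 33.4, 34.9 and 36.8 CPM in mutants and at 34.7, 34.6 and 35.2 CPM in wild type. Its groups overlapped and its log2 fold change was 0.01 (SE 0.065, adjusted P = 0.958). Its exons share 465 bases with the antisense gene 4930500F10Rik. The ratio of Alas2 to Alas1 in CPM was 3.47 ± 0.187 (SD, n = 3) in mutants and 4.60 ± 0.44 in wild type, from 3.31 to 3.68 against 4.26 to 5.10. Slc25a38, the glycine carrier, was at 26.7, 28.2 and 26.8 CPM in mutants and at 28.5, 28.9 and 31.3 CPM in wild type. These groups did not overlap, but the log2 fold change of -0.12 did not pass (SE 0.0716, adjusted P = 0.287) and was -0.08 without wild-type replicate 3 (adjusted P = 0.592).

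Of the cytosolic enzymes, Alad and Urod were lower. Alad was at 66.8, 68.5 and 61.8 CPM in mutants against 83.6, 78.6 and 76.7 CPM in wild type, a log2 fold change of -0.28 (SE 0.0532, adjusted P = 0.000417). Urod, which trims the side chains of the ring, was at 66.9, 68.2 and 69.6 CPM against 78.0, 81.0 and 80.9 CPM, a log2 fold change of -0.23 (SE 0.0497, adjusted P = 0.00153). Neither pair of groups overlapped. Uros, which closes the ring, was at 27.1, 30.0 and 27.9 CPM against 28.3, 29.6 and 33.9 CPM. Its groups overlapped and its log2 fold change of -0.11 did not pass (adjusted P = 0.352). Without wild-type replicate 3, the library with Y-linked reads, it was -0.03 (adjusted P = 0.843).

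The last 3 enzymes all fell. Cpox, coproporphyrinogen oxidase, was at 109, 111 and 108 CPM in mutants and at 170, 178 and 184 CPM in wild type. The gap between the groups was many times the spread within them, and the level fell by 38.4% (log2 fold change -0.70, SE 0.0455, adjusted P = 5.33e-13). By absolute log2 fold change Cpox ranked 593 of 15811 genes. Its exons share 204 bases with Gpr15 on the opposite strand, which held at most 5 counts in any library. Fech, ferrochelatase, was at 100.1, 105 and 107 CPM against 137, 139 and 156 CPM, and fell by 27.6% (log2 fold change -0.47, adjusted P = 4.48e-08). Ppox was at 65.0, 67.1 and 65.5 CPM against 77.1, 72.2 and 79.3 CPM, and fell by 13.5% (log2 fold change -0.21, adjusted P = 0.00541). Exons of Ppox share 791 bases, 17.5% of its exonic sequence, with B4galt3 on the opposite strand, and B4galt3 was at 47.8 ± 1.29 CPM in mutants and 46.1 ± 1.36 CPM in wild type (adjusted P = 0.632).

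**Figure D2:**
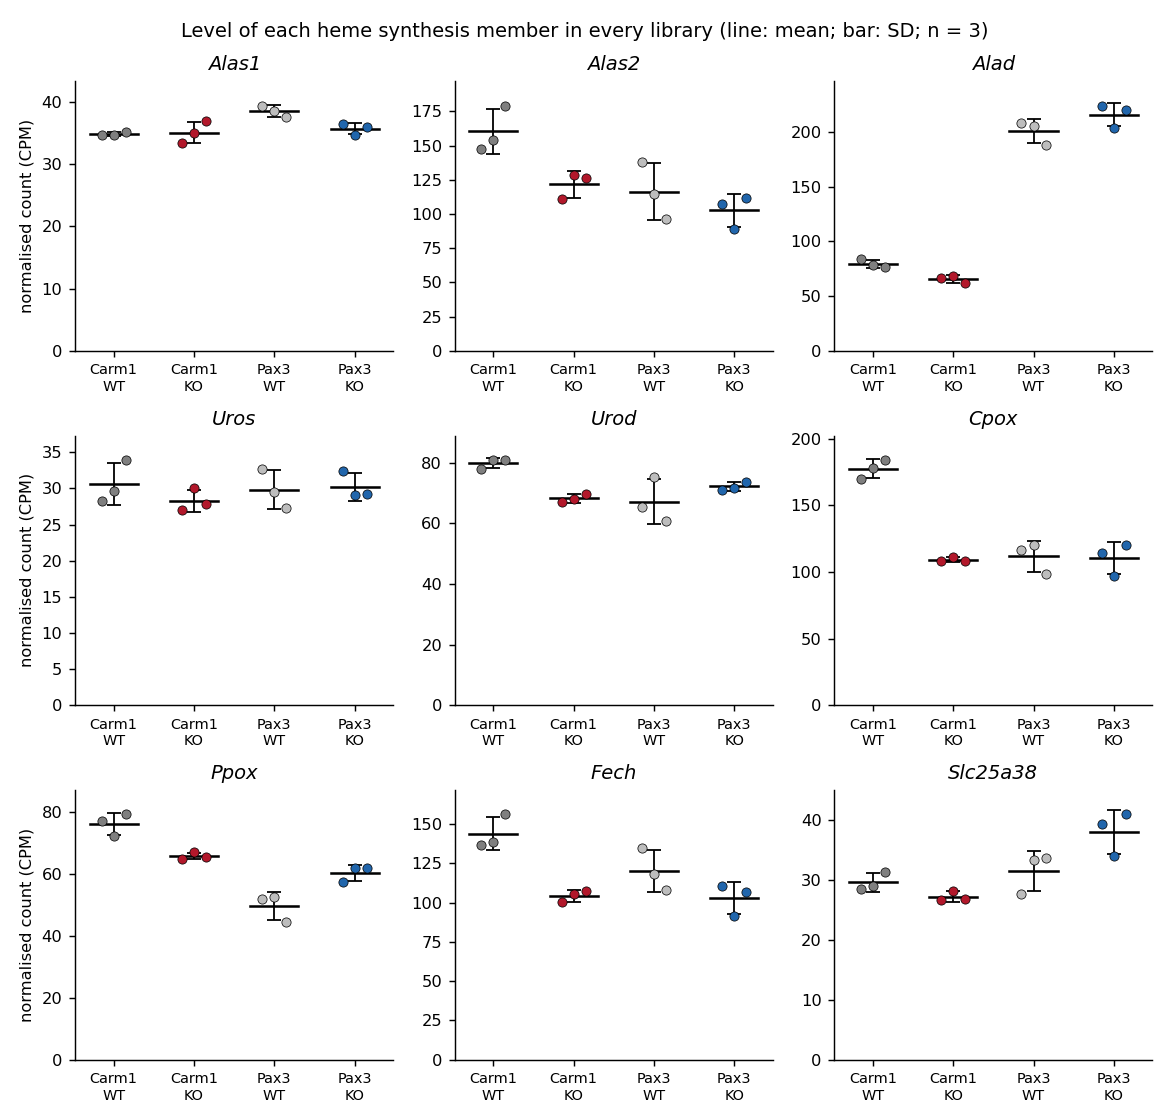
Level of each member in every library, in CPM from 0, for wild-type and mutant embryos of both lines, with the mean as a line and the SD as a bar (n = 3). For Cpox the 3 Carm1 KO/KO libraries sit at 108 to 111 CPM, below all wild-type libraries of that line and beside both groups of the Pax3 line.

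In the Pax3 line, 2 of the 9 members rose in Pax3 Sp2H/Sp2H embryos and none fell. Of the 15724 genes tested there, 14.0% were called higher and 10.5% lower, so the share of members that rose is near that of all genes. Over the 9 members its median was 0.02, against -0.0026 over all genes tested. The members that rose were Ppox, an oxidase late in the pathway, and Slc25a38, the glycine carrier at its entry. Libraries did not overlap for 3 members, as for 39.6% of all genes. Cpox, the member that fell most in the Carm1 line, was at 110.5 ± 11.9 CPM in mutants and 112 ± 11.6 CPM in wild type.

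Ppox was at 57.4, 62.0 and 61.9 CPM in mutants and at 52.0, 52.6 and 44.6 CPM in wild type. The groups did not overlap, and the log2 fold change was 0.28 (SE 0.0684, adjusted P = 0.00325). It passed in all 15 alternatives. The overlapping gene B4galt3 was at 45.8 ± 1.60 CPM in mutants and 45.0 ± 1.95 CPM in wild type. Slc25a38 was at 39.3, 34.0 and 40.9 CPM in mutants and at 27.7, 33.4 and 33.6 CPM in wild type, a log2 fold change of 0.27 (SE 0.0884, adjusted P = 0.0256). The lowest mutant library was only just above the highest wild-type library. The call was lost without wild-type replicate 1 (0.18, adjusted P = 0.138), mutant replicate 1 (0.25, adjusted P = 0.0893) or mutant replicate 3 (0.21, adjusted P = 0.146), and with length and GC correction (0.16, adjusted P = 0.195).

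Fech was at 111, 91.1 and 106 CPM in mutants and at 134, 118 and 108 CPM in wild type. The groups overlapped and the log2 fold change of -0.22 did not pass (SE 0.0835, adjusted P = 0.0658), but it passed in 6 of the 15 alternatives, DESeq2 among them (adjusted P = 0.0388). With length and GC correction it was -0.07 (adjusted P = 0.597), and over left-out libraries it ran from -0.13 without wild-type replicate 1 (adjusted P = 0.211) and -0.15 without mutant replicate 2 (adjusted P = 0.188) to -0.29 without wild-type replicate 3 (adjusted P = 0.00907). Alas2 was at 107, 88.9 and 112 CPM against 138, 114 and 96.1 CPM, so that both groups spread widely, with a log2 fold change of -0.18 (SE 0.168, adjusted P = 0.522). That value rests on single libraries, at -0.03 without wild-type replicate 1, -0.08 without mutant replicate 2 and -0.30 without wild-type replicate 3 (adjusted P = 0.0576), and it was -0.28 with length and GC correction (adjusted P = 0.431). Cpox was at 114, 97.2 and 120 CPM against 117, 120 and 98.5 CPM, with a log2 fold change of -0.01 (adjusted P = 0.924). Alad was at 224, 204 and 220 CPM against 209, 206 and 188 CPM, and Urod at 71.0, 71.8 and 73.9 CPM against 65.3, 75.3 and 60.8 CPM. Their log2 fold changes of 0.10 and 0.11 did not pass. Without wild-type replicate 2, the highest of its group, Urod passed (0.20, adjusted P = 0.0222). Without wild-type replicate 3 the values were 0.06 for Alad and 0.04 for Urod, and with length and GC correction -0.10 and 0.02. Alas1, at 36.4, 34.7 and 35.9 CPM in mutants, lay below the 39.4, 38.6 and 37.5 CPM of wild type in every library without passing (log2 fold change -0.11, adjusted P = 0.303). Uros overlapped, with a log2 fold change of 0.02. The ratio of Alas2 to Alas1 was 2.87 ± 0.279 in mutants and 3.01 ± 0.47 in wild type.

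The effects of both mutations were compared directly as an interaction in 1 fit of all 12 libraries. The change was lower in the Carm1 line than in the Pax3 line for 5 of the 9 members, where 10.5% of the 16292 genes tested were called lower in this comparison and 8.65% higher. The difference of log2 fold changes was -0.67 for Cpox (SE 0.1, adjusted P = 7.59e-05), -0.48 for Ppox (SE 0.0863, adjusted P = 0.000144), -0.38 for Slc25a38 (SE 0.115, adjusted P = 0.0179), -0.37 for Alad (SE 0.0771, adjusted P = 0.000843) and -0.33 for Urod (SE 0.0845, adjusted P = 0.00582). Ppox was the member called lower in Carm1 KO/KO and higher in Pax3 Sp2H/Sp2H embryos. With length and GC correction the differences of Alad (-0.17, adjusted P = 0.164) and Slc25a38 (-0.29, adjusted P = 0.0634) did not pass. That of Slc25a38 was also lost without wild-type replicate 1 (-0.30, adjusted P = 0.0609) or mutant replicate 3 (-0.33, adjusted P = 0.0631) of the Pax3 line. The difference did not pass for Fech (-0.23, adjusted P = 0.186), Alas2 (-0.21, adjusted P = 0.552), Uros (-0.12, adjusted P = 0.502) and Alas1 (0.13, adjusted P = 0.355). That of Fech passed without wild-type replicate 1 (-0.32, adjusted P = 0.0257) or mutant replicate 2 (-0.31, adjusted P = 0.0263) of the Pax3 line, and was -0.14 with a Y-linked term and -0.37 with length and GC correction, both without passing. Those of Alas2 and Uros rest on single libraries. Without wild-type replicate 3 of the Carm1 line they were -0.12 and -0.05, without wild-type replicate 1 of the Pax3 line -0.36 and -0.20, and without wild-type replicate 3 of that line -0.09 and -0.06, and that of Uros was -0.07 without mutant replicate 1 of that line. With a Y-linked term they were -0.10 and -0.0015, and that of Alas2 was -0.12 with length and GC correction.

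**Figure D3:**
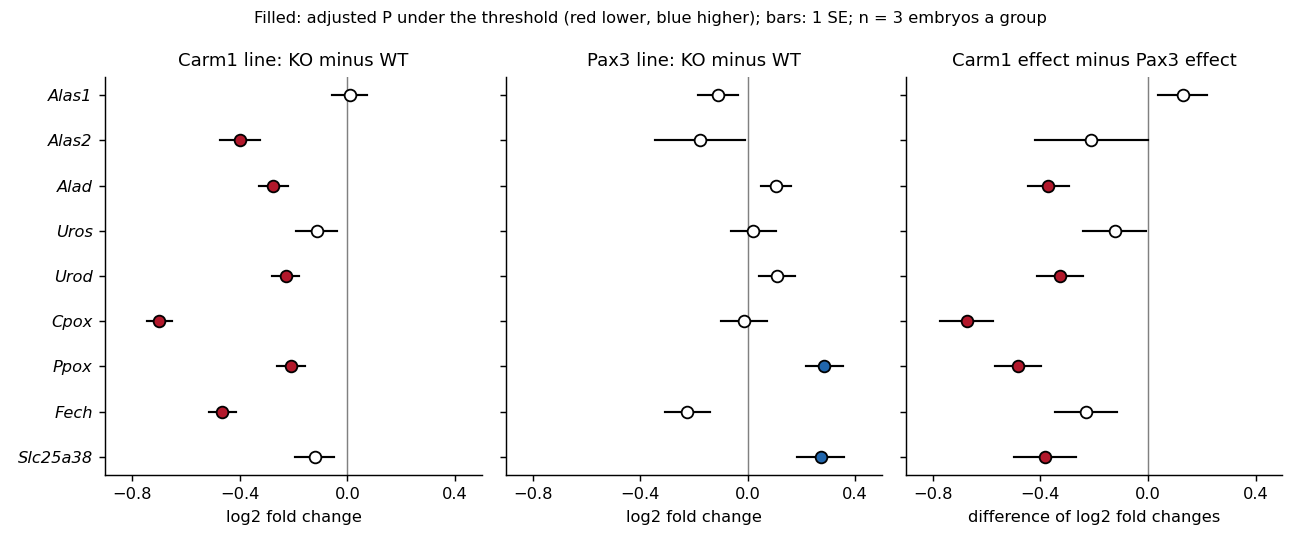
Log2 fold change of each member, mutant minus wild type, in the Carm1 and Pax3 lines, and the difference between both effects, with bars of 1 SE and filled points where the adjusted P was under 0.05. In the Carm1 line 6 points lie below 0 and are filled, in the Pax3 line 2 lie above 0 and are filled, and 5 differences are filled.

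To set each member against red cell content, its level was also expressed as a percentage of the summed level of the 11 erythroid membrane and receptor genes in the same library. Only Cpox had a lower ratio in all 3 Carm1 KO/KO libraries, at 12.5%, 11.2% and 11.8% of the erythroid sum against 13.2%, 14.7% and 13.5% in wild type, a difference of -0.22 on the log2 scale. Over the genes tested, 1.3% had a lower ratio without overlap. Alas2 was at 12.8%, 13.0% and 13.8% against 11.4%, 12.8% and 13.1%, and Fech at 11.6%, 10.6% and 11.7% against 10.6%, 11.5% and 11.4%. For both, the groups overlapped and the log2 differences were 0.08 and 0.02. The other 6 members had a higher ratio without overlap, as did 78.5% of all genes, from 0.20 for Alad to 0.49 for Alas1. With 3 libraries against 3 the exact two-sided permutation test cannot go below P = 0.1, which is its value for these 7 members.

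In the Pax3 line Alad and Ppox had a higher ratio without overlap (log2 differences of 0.30 and 0.48), which 13.9% of all genes had, and the other 7 members overlapped. Without wild-type replicate 3 the groups did not overlap for 8 members and for 61.2% of all genes, and without mutant replicate 1 for 5 members and 24.9% of all genes. This measure depends on the reference. Against the 3 embryonic globins, whose summed level was 7527 ± 660.0 CPM in Carm1 mutants and 6409 ± 1988 CPM in their wild type, all 9 members had a lower ratio in Carm1 KO/KO embryos, from -0.27 for Alas1 to -0.97 for Cpox. The groups did not overlap for 4 of them, Alas2, Cpox, Ppox and Fech, as for 9.3% of all genes. In the Pax3 line no member had a higher ratio without overlap against the embryonic globins. Alas1, Alas2, Cpox and Fech had a lower one without overlap, as did 21.5% of all genes. The direction turned for Alad and Ppox, whose differences were -0.19 and -0.0095.

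**Figure D4:**
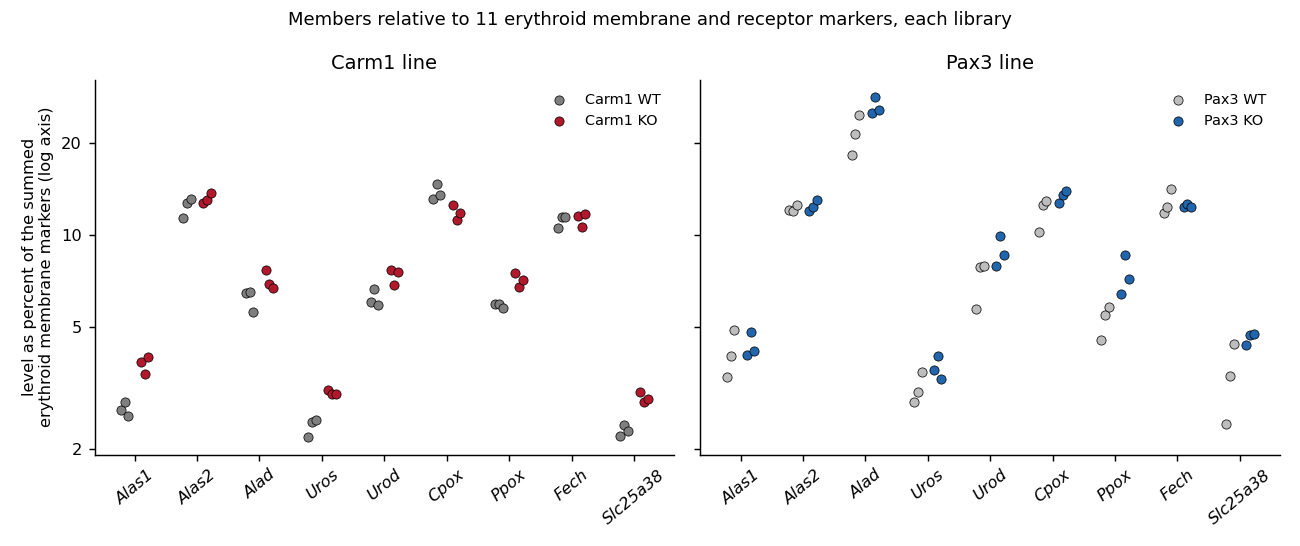
Level of each member as a percentage of the summed erythroid membrane and receptor genes in each library (log axis), wild type and mutant side by side in both lines. In the Carm1 line Cpox is the only member whose mutant points all lie below its wild-type points, and Alas2 and Fech overlap.

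Genes whose pattern over the 12 libraries was nearest to a member were found by the root mean square difference of log2 CPM, centred within each line, among 14491 genes. The genes nearest to Alas2 were Ermap (0.064), Gclm (0.068), Slc4a1 (0.070), Kel (0.070) and Car2 (0.080). Ermap, Slc4a1 and Kel encode red cell membrane proteins, Car2 a carbonic anhydrase abundant in red cells, and Gclm a subunit of the first enzyme of glutathione synthesis. Among the genes nearest to Cpox were Epb4.9 (0.063), Pklr (0.075), Tspan33 (0.083) and Slc4a10 (0.091). Epb4.9 encodes a red cell membrane skeleton protein and Pklr the pyruvate kinase of red cells and liver. In Carm1 KO/KO embryos Epb4.9 fell by 0.65 on the log2 scale and Pklr by 0.82, and in Pax3 Sp2H/Sp2H embryos the log2 fold changes were 0.05 and -0.02. Nearest to Alas1 were Kdm2a (0.026), Snx18 (0.029), Rnf10 (0.029), Tulp4 (0.031) and Aff1 (0.032), none of which passed the test in either line. Because all neighbours were picked by their levels in these same libraries, changes like those of the member follow from the choice and are not separate evidence. Among the members themselves, Alas2 and Fech were the closest pair (0.067), followed by Alad and Urod (0.082).

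Around the pathway, the genes that supply iron and move porphyrins were lower in part in Carm1 KO/KO embryos. Over 7 lists of 56 genes, 16 genes (28.6%) were called lower and none higher, against 7.83% and 5.49% of all genes tested. Of 9 genes for iron uptake and mitochondrial iron import, 4 fell and none rose (median log2 fold change of the list -0.20). Slc25a37, the mitochondrial iron importer of red cell precursors, was at 235 ± 5.24 CPM against 302 ± 19.4 CPM (log2 fold change -0.36, adjusted P = 4.04e-07), and Tfrc, the transferrin receptor, at 182 ± 13.5 CPM against 236 ± 20.1 CPM (-0.38, adjusted P = 0.000425). Of 9 genes for porphyrin and heme transport 3 fell and none rose (median -0.14). These were Abcb10, a mitochondrial transporter that binds Slc25a37 (-0.31, adjusted P = 2.5e-05), the porphyrin exporter Abcg2 (-0.31, adjusted P = 0.000727) and Tmem14c, which serves porphyrin import (-0.18, adjusted P = 0.0146). Of 12 genes of iron-sulfur cluster assembly 2 fell, Glrx5 (-0.25) and Iba57 (-0.38), with a median of -0.038.

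Of 7 genes for iron storage and sensing 2 fell, Tfr2 (-0.68) and the ferritin chain Fth1 (-0.28), with a median of -0.039. Of 7 genes for succinyl-CoA and glycine supply 2 fell, Ogdh (-0.13) and the glycine transporter Slc6a9 (-0.20), with a median of -0.052. Of 6 genes that act on the Alas enzymes 1 fell, Ppargc1a (-0.45), a coactivator of Alas1 in liver, with a median of -0.027. Of 6 genes for heme breakdown and sensing 2 fell, Blvrb (-0.44) and the heme-binding plasma protein Hpx (-1.10), while heme oxygenase Hmox1 was at 25.0 ± 3.39 CPM against 26.8 ± 1.13 CPM and did not pass (adjusted P = 0.475). The median of that list was -0.15. Of the 16 calls in these 7 lists, 7 passed in all 15 alternatives. Slc6a9 passed in 6 of them, Ogdh in 8, Ppargc1a in 11, Fth1 and Hpx in 12, Tmem14c in 13 and Iba57 in 14. Of the iron uptake genes Slc25a28 (-0.24) passed in 6 and Fam210b (-0.20) in 14. The call of Slc6a9 was lost without any 1 library but mutant replicate 3 (-0.13 without mutant replicate 1), that of Ogdh without any but wild-type replicates 1 and 3, that of Slc25a28 without any but mutant replicate 3 and wild-type replicate 3, and that of Ppargc1a without mutant replicate 1 or 2 or wild-type replicate 2. Leaving out mutant replicate 1 ended the call of Fth1 (-0.26), mutant replicate 2 those of Tmem14c (-0.13) and Fam210b (-0.16), mutant replicate 3 that of Iba57 (-0.31) and any mutant library that of Hpx. Without wild-type replicate 3 Hpx was -0.69 (adjusted P = 0.0116) and Fth1 -0.19 (adjusted P = 0.00285).

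In the Pax3 line calls in these lists went in both directions. Of the 56 genes, 11 (19.6%) were called higher and 8 (14.3%) lower, against 14.0% and 10.5% of all genes tested, so that the shares over the lists are near those of all genes. Of 12 iron-sulfur cluster genes 5 rose and none fell (median 0.32), among them Glrx5 (0.62, adjusted P = 8e-06), which is needed for heme synthesis in red cells, and the scaffold Iscu (0.45). Of the 9 iron uptake genes (median -0.0020) 1 rose, the importer Slc25a28 (0.47), and 2 fell, transferrin Trf (-0.33) and Ncoa4 (-0.20), and neither Tfrc (-0.06, adjusted P = 0.43) nor Slc25a37 (-0.0018, adjusted P = 0.992) passed. Of the 9 transport genes (median 0.094) Pgrmc2 (0.29) and Tmem14c (0.26, adjusted P = 0.00347) rose and Abcg2 (-0.21) fell, and Abcb10 did not pass (0.08, adjusted P = 0.441). The 7 iron storage and sensing genes (median -0.076) gave 1 that rose, Ftl1 (0.23), and 1 that fell, Ireb2 (-0.17). The 7 genes for succinyl-CoA and glycine supply (median -0.031) gave 2 that fell, Ogdh (-0.25) and Sfxn1 (-0.16). Of the 6 genes that act on the Alas enzymes (median -0.0031), the mitochondrial proteases Clpp (0.40) and Lonp1 (0.19) rose and the heme-regulated kinase Eif2ak1 (-0.22) fell. Hmox1 fell (-0.31, adjusted P = 0.00834) and was the 1 called of 6 genes for heme breakdown and sensing (median -0.069). Of the 19 calls in these lists, 7 passed in all 15 alternatives. Sfxn1 passed in 8 of them, Abcg2 in 9, Ncoa4 in 10, Ireb2 and Lonp1 in 11, Ftl1 in 12 and Tmem14c in 13, and all 7 were lost without mutant replicate 3 and with length and GC correction. That correction turned the direction of Ftl1 (-0.08), Ireb2 (0.02) and Tmem14c (-0.02), took Abcg2 to -0.03, Sfxn1 to -0.01 and Ncoa4 to -0.07, and ended the calls of Clpp (0.07, adjusted P = 0.537) and of the iron-sulfur gene Hscb (0.53 before and 0.27 after it, adjusted P = 0.0886). Without wild-type replicate 1 Ncoa4 was -0.11 (adjusted P = 0.213) and Abcg2 -0.13 (adjusted P = 0.221). Other left-out libraries also ended calls, for Sfxn1 any 1 but wild-type replicate 2, for Abcg2 mutant replicates 1 and 2, for Ncoa4 wild-type replicate 2 and mutant replicate 2, for Ireb2 and Lonp1 wild-type replicate 3 and mutant replicate 2, and for Ftl1 mutant replicate 1. The call of Eif2ak1 was lost without mutant replicate 3 (-0.20), that of Hmox1 without wild-type replicate 3 (-0.27) and that of Trf in the fit of all 12 libraries (-0.34), while Hmox1 was -0.48 with length and GC correction. As an interaction, 16 genes of these lists were called, 8 of them in all 20 alternatives. Over all genes tested, 10.5% were called lower and 8.65% higher. All but Ireb2 (0.19, called in 6 alternatives) were lower in the Carm1 line. Among those called in all 20 were Glrx5 (-0.86), Tfr2 (-0.84), Slc25a28 (-0.70) and Blvrb (-0.70). The change was also lower for Tfrc (-0.30, adjusted P = 0.0114), Abcb10 (-0.38, adjusted P = 0.0021) and Tmem14c (-0.43, adjusted P = 0.000367, but -0.14 and 0.175 with length and GC correction). The interaction did not pass for Slc25a37 (-0.35, adjusted P = 0.0597) and Hmox1 (0.22, adjusted P = 0.226).

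Genes of red cell precursors and of liver were mostly lower in Carm1 KO/KO embryos, as 6 members were, while the embryonic globins as a list were not. Of 61 genes tested in 7 cell lists 34 (55.7%) were called lower and 7 (11.5%) higher, against 7.83% and 5.49% of all genes tested. Of 9 erythroid transcription factors 7 fell and none rose (median -0.57). Tal1 was at 54.1 ± 2.20 CPM against 80.8 ± 2.41 CPM (-0.58, adjusted P = 9.66e-10), Klf1 at 21.3 ± 0.391 CPM against 31.7 ± 2.40 CPM (-0.57, adjusted P = 1.88e-06) and Gata1 at 13.4 ± 2.46 CPM against 20.7 ± 0.593 CPM (-0.62, adjusted P = 4.65e-05). All 11 erythroid membrane and receptor genes in the tables fell, with the lowest adjusted P for the anion exchanger Slc4a1 (-0.46) and Rhd (-0.55) and a median of -0.51. The 7 factor calls passed in all 15 alternatives, and the 11 membrane calls in all but the fit of 12 libraries, where 4 passed. Of 3 embryonic globins (median 1.10) Hbb-bh1 rose (1.30, adjusted P = 0.037), which passed in 10 of 15 alternatives and was lost without any 1 of the mutant libraries, without wild-type replicate 2 and with the replicate block. Of 12 hepatocyte genes (median -1.03) 11 fell, among them Serpina6 (-1.14) and Fgg (-1.31), and their summed level was 898 ± 73.2 CPM against 1705 ± 175 CPM. Of 10 macrophage genes tested (median -0.044) 3 fell, among them Marco (-2.95) and Cd5l (-1.46). Of 10 megakaryocyte and platelet genes (median -0.23) Pf4 (-0.80) and Ppbp (-1.13) fell and Vwf (0.36) rose. Of 10 mast cell genes listed, 6 had enough reads to be tested (median 1.22) and 5 rose, among them Cpa3 (1.86) and Cma1 (3.05). Mcpt4, Tpsb2, Tpsab1 and Fcer1a were not tested. Cma1 and Ms4a2, which also rose, were fitted in 14 of the 15 alternatives and had too few reads to be tested in the Pax3 line. The filter needs enough reads in only 1 group, so the count of mast cell genes that rose may follow from it in part. Of all 41 calls in these 7 lists 24 passed in every alternative, and that of Vwf was lost without mutant replicate 1 or wild-type replicate 2 (0.34 in both).

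In the Pax3 line 9 of 59 genes tested in the cell lists (15.3%) were called higher and 6 (10.2%) lower, near the shares of all genes. There Gata1 (0.03, adjusted P = 0.841) and Klf1 (0.05, adjusted P = 0.8) did not pass, and the change of both was lower in the Carm1 line than here (interaction, -0.65 with adjusted P = 0.0023 and -0.61 with adjusted P = 0.00509). That of Klf1 was lost with length and GC correction (-0.31, adjusted P = 0.173). In this interaction 6 of the 9 erythroid factors were called lower. Of the 11 membrane and receptor genes, all lower in Carm1 KO/KO embryos, only 2 were, Rhd and Epor, and the other differences did not pass. Within the Pax3 line, Ldb1 (0.34) and Lmo2 (0.27) of the 9 erythroid factors (median 0.033) rose and Gfi1b (-0.46) and Bcl11a (-0.17) fell. Of the 11 membrane and receptor genes (median -0.24) the erythropoietin receptor Epor (0.41) and Rhd (0.30) rose and Rhag (-0.32) fell, and no embryonic globin passed (median 0.25). Of the 12 hepatocyte genes (median -0.15) Apoa2 (0.70) rose and Afp (-0.38) and Fga (-0.31) fell, with a summed level of 1028 ± 51.3 CPM in mutants and 1289 ± 143 CPM in wild type. Of 10 macrophage genes tested (median -0.020) C1qc (0.76) rose and Mrc1 (-0.41) fell. Of 10 megakaryocyte and platelet genes (median -0.17) Gp1bb (0.49) and Pf4 (0.32) rose, and of 4 mast cell genes tested (median -0.040) Gata2 (0.28) rose. Of these 15 calls 5 passed in all 15 alternatives. Rhd passed in 6 of them, Bcl11a in 8, Fga and Gp1bb in 10, Pf4 in 11, Gfi1b and Rhag in 12, Lmo2 and Gata2 in 13 and Epor in 14. Leaving out wild-type replicate 1 or mutant replicate 3 ended 7 of these calls each, and length and GC correction 7, in which Bcl11a went to -0.01, Pf4 to 0.02, Rhd to 0.10, Lmo2 to 0.14, Epor to 0.17 and Gp1bb to 0.24. With that correction Apoa2 (0.32) and Gfi1b (-0.70) passed at other sizes. Without wild-type replicate 1 Rhag was -0.21, and without wild-type replicate 3 Bcl11a was -0.11.

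**Figure D5:**
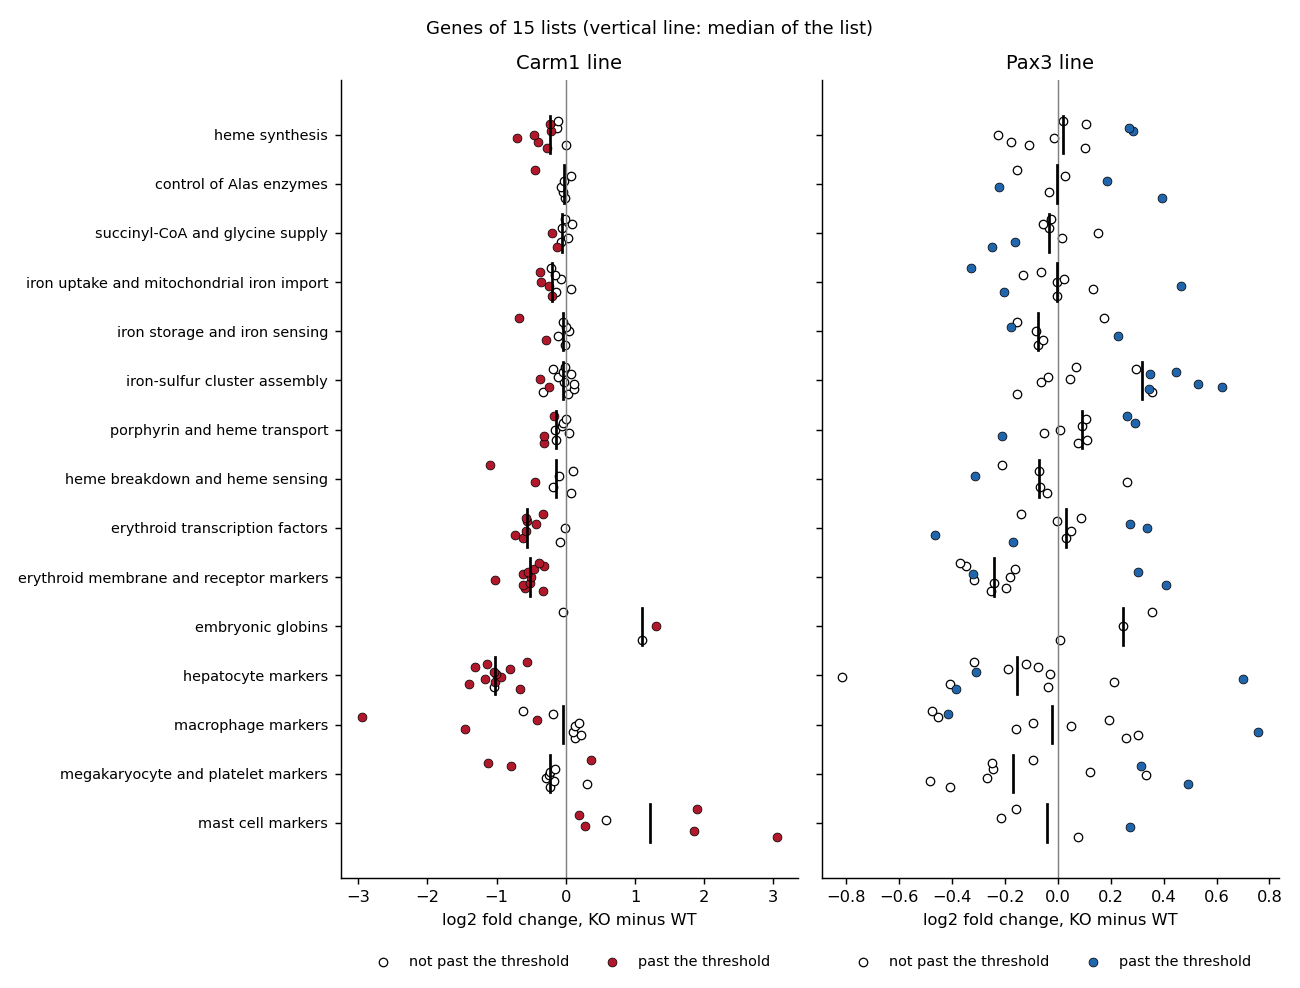
Log2 fold change, mutant minus wild type, of each gene of 15 lists in both lines (the axes differ in range), with the median of each list as a vertical line and filled points where the adjusted P was under 0.05. In the Carm1 line the filled points lie below 0 except those of Hbb-bh1, Vwf and 5 mast cell genes, and the medians of the 2 erythroid lists and the hepatocyte list lie below that of the 9 heme synthesis members, while in the Pax3 line filled points lie on both sides.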

How the data were processed

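Polyadenylated RNA of whole embryos was sequenced as paired reads, 1 library per embryo. The authors aligned reads to mm10 with STAR and counted them on exons with featureCounts. They deposited the raw counts per gene, not normalized and not pooled. Tool versions, annotation, strand setting and treatment of reads with several alignments are not given in the sources used here, so reads of a gene and an overlapping gene on the other strand cannot be told apart. The sample labels gave the groups and replicate numbers. Replicates differed by more than sampling noise (chi-square per degree of freedom from 3.07 to 23.2). The sources used here do not say how embryos were drawn from litters. P values measure the spread between embryos within groups, over 1 line or, for the interaction, over these 12 embryos.

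Each line was fitted in R 4.3.3 with edgeR 4.0.16 (quasi-likelihood, two-sided, TMM factors, filterByExpr, robust dispersion). Adjusted P values follow Benjamini and Hochberg over all genes tested, with a threshold of 0.05. Lines were compared as an interaction in 1 fit of 12 libraries. CPM use TMM-scaled library sizes, and CPM per kb the median length of coding transcripts. Ratios to the summed erythroid markers were compared by an exact permutation test. The scripts were tested on simulated data with 200 changed genes.

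The members and all gene lists were chosen with earlier results of these data known. Named were all 9 members, of every other list the 2 called genes of lowest adjusted P in each direction and line, Gata1, Klf1, Tfrc, Slc25a37, Hmox1, Abcb10, Tmem14c, both targeted genes, and the 5 genes nearest to Alas2, Cpox and Alas1 among those with a mean of at least 1 CPM in each line. Of the genes that this rule names, 1 is not reported here. Of the listed genes, Ahsp was not found under any symbol, and Fdx2, Flvcr1, Flvcr2, Epb42 and Adgre1 were found under older symbols. GENCODE M21 (GRCm38, the same build as mm10) matched 21785 of 23420 symbols directly and 1259 by a synonym. Alternatives were DESeq2 1.42.0, RLE and upper-quartile factors, no filter, at least 10 counts in every library, 1 fit of 12 libraries, the replicate number as a block, a term for libraries with at least 100 Y-linked counts, offsets for length and GC content (splines with 5 degrees of freedom), other references for the ratio (embryonic globins, mean log2(CPM + 1) of the markers), and leaving out each library.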

Additional observations from a re-analysis of the deposited data

Results flagged for a closer look

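The effect of the mutation differed between the Carm1 and Pax3 lines for 5 of the 9 members by the interaction test. Over all 16292 genes tested, 10.5% were called lower and 8.65% higher in that test. As the Carm1 effect minus the Pax3 effect on the log2 scale, the difference was -0.67 for Cpox, -0.48 for Ppox, -0.38 for Slc25a38, -0.37 for Alad and -0.33 for Urod. The differences of Cpox, Ppox and Urod passed in all 20 alternatives, that of Alad in 19 and that of Slc25a38 in 17. Mutation, strain, colony and laboratory change together between the lines and cannot be told apart.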

How the results depend on the processing

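The 6 calls of the Carm1 line held in 13 of 15 alternatives, and Alas2 was lost in the other 2. Leaving out 1 library gave 1224 to 2290 genes called over the whole table of the Carm1 line and 2454 to 4103 in the Pax3 line, and 1 to 3 members called in the Pax3 line. The share of all genes called with length and GC offsets is not given. With these offsets only Ppox stayed called among the members in the Pax3 line, and only Urod, Cpox and Ppox in the interaction. The cause was not tested. In the fitted comparisons, signs turned only for members that did not pass: Alad (-0.10) and Cpox (0.068) in the Pax3 line with these offsets, Uros there with a Y-linked term (-0.022), and, over left-out libraries, Alas1 in the Carm1 line (-0.028 to 0.043), Uros in the Pax3 line (-0.036 to 0.094) and Cpox in the Pax3 line (-0.095 to 0.070). With embryonic globins as the reference, 4 members did not overlap in each line, against 9.3% of all genes in the Carm1 line and 22.5% in the Pax3 line, and all 4 were lower in both lines. With the erythroid markers as the reference and 1 library left out, the count in the Pax3 line ran from 2 to 8 members, and the share of all genes from 16.7% to 61.2%.

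The labels do not say whether replicate numbers pair the samples, and correlations over 3 libraries a group cannot exclude it. Deviations of same-numbered libraries correlated at -0.07, -0.0086 and -0.05 in the Carm1 line and 0.088, -0.011 and 0.19 in the Pax3 line. Mutant replicates 1 and 3 of the Pax3 line correlated best with the wild type of their own number, and the other mutant libraries did not. With the replicate number as a block, the member calls of both lines and of the interaction held. Fech was added in the Pax3 line (-0.22, adjusted P = 0.00617) and in the interaction (-0.23, adjusted P = 0.043). The share of all genes called with this block is not given, so these calls are not set against it.

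With 3 libraries a group, Slc25a38, read with as few as 454 counts, and Uros had log2 fold changes with SE of 0.0716 and 0.0754, beside changes of -0.12 and -0.11 in the Carm1 line that did not pass and that were -0.08 and -0.03 without wild-type replicate 3.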
